A study of Mus musculus with 13 samples.

Results

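The genes examined here were the Sprouty genes Spry1, Spry2 and Spry4, the Spred genes Spred1 and Spred2, the ETS factor genes Etv1, Etv4 and Etv5, and Phlda1, which are known as targets or brakes of fibroblast growth factor (FGF) signalling. A gene was measured by the probe sets whose platform annotation names it and no other gene, and its value was the mean log2 ratio over them. Of the 9 genes, 8 had such a probe set, with 26 probe sets between them, out of 18193 genes on the array. Spred1 had 8 probe sets, Spred2 had 5, Spry4 had 4, Etv5 had 3, Spry2 and Etv4 had 2 each, and Spry1 and Phlda1 had 1 each. Etv1 shares its 3 probe sets with the pseudogene Gm5454, so it has no value under this rule and is described separately.

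The study sought oscillating genes in C2C12, a mouse myoblast line, in work on how somites form. Cells in parallel flasks were grown to 90% confluence in DMEM with 5% fetal bovine serum (FBS), kept for 24 h in 0.2% FBS, and given back medium with FBS, the concentration of which the design text does not repeat. Total RNA was hybridised to 1 array for each time point, and the 13 arrays used here ran from 0 to 6.0 h in steps of 0.5 h. All groups are the same line under the same treatment and differ in time alone: 0 h, the end of low serum (1 array), and the early (0.5 to 2.0 h), middle (2.5 to 4.0 h) and late (4.5 to 6.0 h) windows after serum return, with 4 arrays each. There were no replicates and no flasks held in low serum alongside, so p-values measure the spread between neighbouring time points, and time in culture and the return of serum cannot be told apart.

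In the deposited table each probe set is a ratio to a reference value of its own, so the values show change over time but not how strongly a gene is expressed. Levels of different genes were therefore not compared, and the presence of the myoblast markers could not be checked. Array medians of the ratio ran from 0.977 to 1.00, and the median residual SD within windows was 0.10 on the log2 scale. In bulk RNA, fewer cells expressing a gene and less RNA per cell cannot be told apart.

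FGF receptors, through the adaptor Frs2 and the GTPase Ras, switch on the kinase ERK. ERK activity induces transcription of Sprouty and Spred genes, whose proteins then restrain Ras and Raf, and of the related activators Etv1, Etv4 and Etv5, which carry the signal on to target genes. In skeletal muscle, Spry1 is known for its role in returning muscle stem cells to quiescence, and in the embryo Sprouty, Spred and Etv genes are transcribed where FGF signals reach the tail bud and limb bud.

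Promoter sequence is shown for Spry1 and Spry2, the only Sprouty genes with a window used here, and for the second annotated start of Etv5, whose course ran later. Each window is the 250 bases before an annotated start, 5′ to 3′ on the strand of the gene, from RefSeq on GRCm38.p6. RefSeq windows were used for 6 of the 9 genes, with 8 starts. None was used for Spry4, Etv4 or Phlda1, which does not mean that RefSeq lacks one, and their promoters were not searched. Capitals mark matches to TGAATG, the start of the octamers bound by the repressor Capicua (Cic), and to GGAAGT, an ETS factor core, on either strand. The whole octamers were not searched for, so a match to TGAATG need not be a Capicua site.
Spry1, chr3:37639697-37639946, plus strand: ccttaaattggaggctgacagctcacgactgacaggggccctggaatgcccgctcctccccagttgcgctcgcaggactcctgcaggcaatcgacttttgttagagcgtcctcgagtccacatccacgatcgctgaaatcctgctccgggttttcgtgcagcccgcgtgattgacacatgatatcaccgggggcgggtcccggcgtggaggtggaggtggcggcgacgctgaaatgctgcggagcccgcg
Spry2, chr14:105896820-105897069, minus strand: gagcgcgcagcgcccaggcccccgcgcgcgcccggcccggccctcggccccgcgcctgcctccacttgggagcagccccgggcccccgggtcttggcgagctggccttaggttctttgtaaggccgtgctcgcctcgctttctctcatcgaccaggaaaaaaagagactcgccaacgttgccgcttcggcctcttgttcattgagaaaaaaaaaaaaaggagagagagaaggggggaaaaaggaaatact
Etv5 second start, chr16:22438369-22438618, minus strand: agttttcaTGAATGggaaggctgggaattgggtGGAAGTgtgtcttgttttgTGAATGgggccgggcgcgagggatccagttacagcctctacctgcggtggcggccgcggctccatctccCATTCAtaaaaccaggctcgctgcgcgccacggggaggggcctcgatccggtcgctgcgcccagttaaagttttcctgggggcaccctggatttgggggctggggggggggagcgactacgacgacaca
The Etv5 window held TGAATG at 3 places, with first bases at -242, -198 and -129 from the start, and GGAAGT at -217. These matches do not overlap each other. At least 1 TGAATG was found in 10.9% of 32851 RefSeq windows of the same length and at least 3 in 0.131%, and GGAAGT was found in 19.7%. Neither motif was in the Spry1 or Spry2 window, nor were TGANTCA (the AP-1 site, in 6.75% of windows), TGACGTCA (the CRE, in 1.55%) or the CArG box of serum response factor (in 1.47%). Of the other windows, that of Spred2 held 1 GGAAGT, at -33 on the opposite strand. The windows of the first Etv5 start, of the Etv1 starts and of Spred1 held none of these motifs. The motifs were chosen after the sequences had been seen, so these shares do not measure how unusual the Etv5 window is. A match is a description of these letters only, and a link to the courses was not tested.

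Transcripts of Phlda1, Spry2 and Spry4 rose in the early window. Gene values of Etv4 and Etv5 were highest in the late window, though Etv5 passed no window comparison. In the early window Phlda1 was 2.06-fold, Spry4 1.95-fold and Spry2 1.58-fold above 0 h, and these 3 of the 8 measured genes passed the test, all upwards. Among all genes, 3.26% were called in this comparison with 1.46% called higher and 1.81% lower. The median difference of the 8 genes was 0.27 on the log2 scale, against -0.03 over all genes. Highest ratios came at 0.5 h for Phlda1, at 1.0 h for Spry1 and Spry2, and at 2.0 h for Spry4 and Spred1. Those of Etv4 and Etv5 came at 5.5 and 6.0 h. Over all genes, 9.77% were highest at 0.5 h, 5.89% at 1.0 h and 6.51% at 2.0 h. At 5.5 h 7.98% were highest, and at 6.0 h 13.9%. Ordered by range over the 13 arrays, on the log2 scale, the genes were Spry4 (1.28), Phlda1 (1.19), Etv5 (0.89), Spry2 (0.87), Spry1 (0.86), Etv4 (0.62), Spred1 (0.45) and Spred2 (0.22). A range as wide as that of Spry4 was seen in 2.39% of all genes and one as wide as that of Spred2 in 95.3%. These are ranges of means over 1 to 8 probe sets, and averaging can narrow a range. Single probe sets of Spred2 ranged from 0.41 to 0.74. For Spry4, 1445669_at had a range of 2.66, and the others had 0.67, 0.81 and 1.21.

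**Figure D1:**
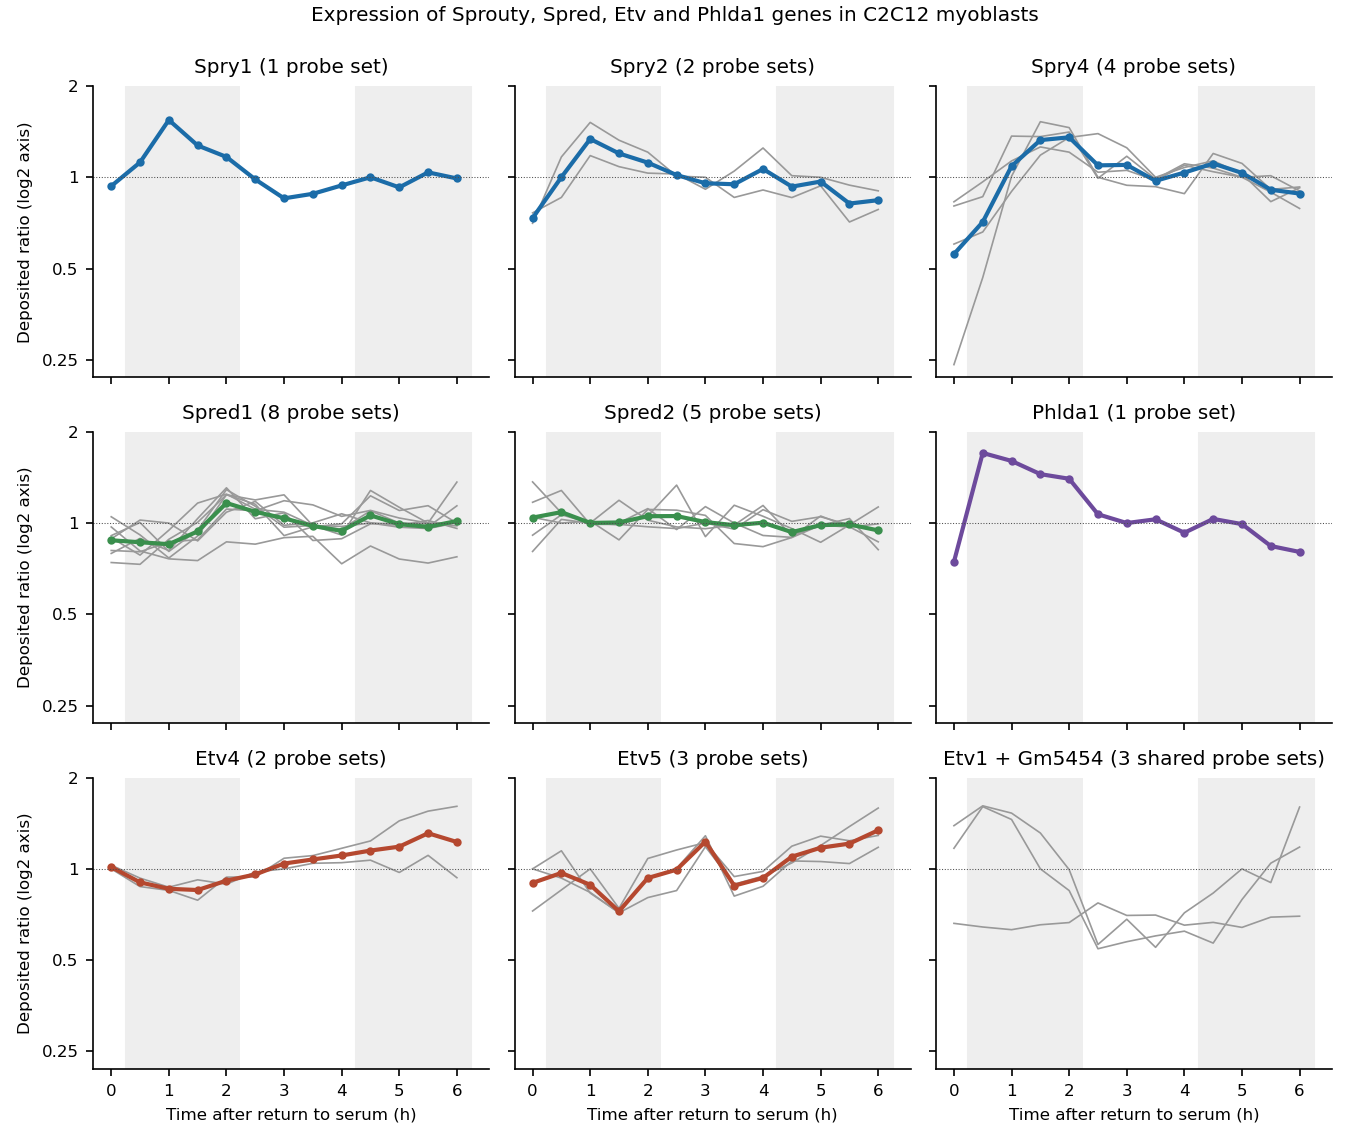
Deposited ratio (log2 axis) against hours after serum return for each of the 9 genes, with the thick line and points the gene value and thin lines its probe sets; for Etv1 the lines are probe sets shared with Gm5454. Phlda1 was highest at 0.5 h (1.703), Spry1 at 1.0 h (1.545) and Spry4 at 2.0 h (1.35), while Etv5 was highest at 6.0 h (1.34).

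Spry1 encodes a Sprouty protein that blocks the pathway at or above Ras and Raf. Its single probe set had a ratio of 0.935 at 0 h, 1.12, 1.545, 1.273 and 1.167 in the early window, 0.984, 0.852, 0.882 and 0.940 in the middle window, and 1.00, 0.926, 1.038 and 0.991 in the late window. All 4 early arrays lay above 0 h and above all 8 later arrays, and the 0 h value lay within the range of the middle window. Spry1 fell from the early to the middle window by 0.47 ± 0.09 on the log2 scale (SE, 4 arrays against 4; adjusted p = 0.00211). In that comparison 2 of the 8 genes fell and 1 rose, against 14.4% of all genes called lower and 7.74% called higher. The early difference from 0 h was 0.44 ± 0.14 (95% interval 0.14 to 0.73; adjusted p = 0.0959) and did not pass. Without the 0.5 h array it did (adjusted p = 0.0354, the lowest of 19 alternatives, which reached 0.288).

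Spry2, which encodes a Sprouty protein that also binds the ubiquitin ligase Cbl, had gene ratios of 0.733 at 0 h, 1.00, 1.34, 1.20 and 1.12 in the early window, 1.02, 0.956, 0.948 and 1.06 in the middle window, and 0.931, 0.968, 0.819 and 0.840 in the late window. The 0 h array was the lowest of the 13. The early window lay wholly above the late one and overlapped the middle one. Spry2 rose by 0.66 ± 0.13 from 0 h to the early window (adjusted p = 0.0201). The call was lost after quantile normalization (adjusted p = 0.109) and with windows ending at 1.5, 3.5 and 6.0 h (0.0610), in a range of 0.00320 to 0.109 over 19 alternatives. The later step down, -0.22 ± 0.08 from early to middle, did not pass (adjusted p = 0.0780), but did without 0.5 h (0.0225) and with 1 probe set per gene (0.00462), the highest of 20 alternatives being 0.237.

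The pair of Spry2 probe sets differed in size. Probe set 1436584_at went from 0.705 at 0 h to 1.517 at 1.0 h, and its early difference of 0.88 ± 0.16 passed (adjusted p over 45037 single probe sets = 0.00979; 1.56% of them were called higher). Probe set 1421656_at stood at 0.763 at 0 h and at 1.179 at 1.0 h, and was highest at 4.0 h (1.249); its early difference of 0.43 ± 0.16 did not pass (0.151). Early to middle, 1436584_at fell by 0.46 ± 0.10 (0.00488; 11.7% of single probe sets were called lower) and 1421656_at moved by 0.03 ± 0.10 (0.878).

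Spry4, the third Sprouty gene, had the widest course by gene value. Its gene ratios were 0.558 at 0 h, 0.712, 1.09, 1.33 and 1.35 in the early window, 1.09, 1.10, 0.973 and 1.04 in the middle window, and 1.11, 1.03, 0.910 and 0.884 in the late window. All 12 later arrays lay above 0 h, and the 3 windows overlapped each other. The early difference was 0.96 ± 0.25 on the log2 scale (adjusted p = 0.0487) and the late difference from 0 h was 0.81 ± 0.25 (adjusted p = 0.0340). Spry4 was the 1 gene of the 8 called in late against 0 h, where 8.80% of all genes were called higher and 9.90% lower.

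Both Spry4 calls turned on single arrays and on 1 probe set. Probe set 1445669_at had ratios of 0.241 at 0 h and 0.467, 1.008, 1.525 and 1.458 in the early window, and lay between 0.883 and 1.198 from 2.5 h on. Its differences from 0 h were 2.07 ± 0.41 early (adjusted p over single probe sets = 0.0162) and 2.10 ± 0.41 late (0.00369; 7.34% of single probe sets were called higher). The other 3 probe sets had early differences of 0.45, 0.61 and 0.71 and late ones of 0.16, 0.31 and 0.69, and none of these 6 passed. Without 1445669_at, Spry4 differed from 0 h by 0.59 early (adjusted p = 0.108) and by 0.39 late (0.192). With all 4 probe sets, the early call remained in 1 of the 12 fits that each left out 1 array, the one without 0.5 h (4.61e-04), and the others reached 0.0868. The late call was lost without 4.5 h (0.0611), without 5.0 h (0.0605) and after quantile normalization (0.177; range over 20 alternatives 0.00105 to 0.192).

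**Figure D2:**
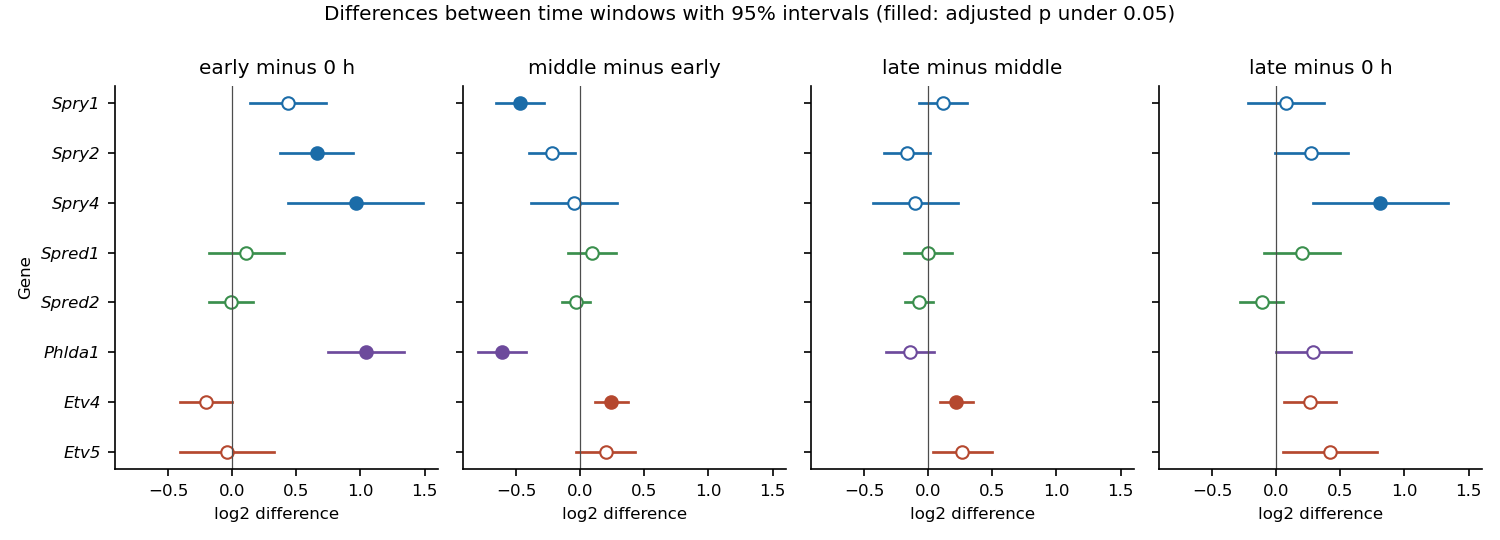
Log2 difference between time windows (x axis) for each measured gene (y axis), 1 panel per comparison, with bars for the 95% interval and filled points for an adjusted p under 0.05. Phlda1, Spry4 and Spry2 were called early against 0 h, Etv4 rose at both later steps, and the intervals of Spred1 and Spred2 spanned 0 in all panels.

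The Spred genes encode membrane proteins that bring neurofibromin, an inactivator of Ras, to the membrane. Neither was called in any of the 4 window comparisons at the gene level. Among the alternatives, Spred1 was called higher in middle against early with the other windows (0.27; adjusted p = 0.0314, the lowest of 20, which reached 0.793). Spred2 was called lower in late against 0 h with 1 probe set per gene (-0.55; adjusted p = 0.0142, the lowest of 18, which reached 0.526). Spred1 ranged from 0.852 (1.0 h) to 1.16 (2.0 h), with a 0 h ratio of 0.877 that lay above 2 of the 4 early arrays and below all middle and late ones. Its early difference from 0 h was 0.11 ± 0.14 (95% interval -0.18 to 0.40; adjusted p = 0.712) and its late difference was 0.20 ± 0.14 (-0.09 to 0.50; 0.346). Spred2 ranged from 0.934 (4.5 h) to 1.09 (0.5 h), and its early difference was -0.01 ± 0.08 (-0.18 to 0.16; 0.966). The early upper bound for Spred1 lay just under the early difference of Spry1 (0.44), whose own interval (0.14 to 0.73) overlapped that of Spred1.

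Single Spred probe sets did not all move alike. Of the 8 for Spred1, 4 carry a suffix (_s or _x) that marks probes able to bind more than 1 transcript, and 1445228_at was highest at 0 h (0.971) and under 1 on all arrays. Probe set 1428777_at rose from early to middle by 0.30 ± 0.09 (adjusted p over single probe sets = 0.0287; 6.35% of single probe sets were called higher). For Spred2, 1441802_at was highest at 0 h (1.367) and was lower by 0.55 ± 0.14 late (0.0147; 7.33% were called lower). The other Spred2 probe set with an extreme at 0 h, 1436892_at, was lowest there (0.806).

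Phlda1 encodes a small protein with a pleckstrin homology-like domain, and its transcript is known to follow ERK activity. The ratio was 0.745 at 0 h, 1.703, 1.603, 1.450 and 1.400 in the early window, 1.069, 1.000, 1.029 and 0.929 in the middle window, and 1.032, 0.992, 0.840 and 0.803 in the late window. The 0 h array was the lowest of all, the 4 early arrays lay above the other 9, and middle and late arrays overlapped. At 0.5 h the transcript stood 2.29-fold above 0 h, and at 6.0 h 1.08-fold. It rose by 1.04 ± 0.14 to the early window (adjusted p = 0.00224) and fell by 0.61 ± 0.09 to the middle window (4.73e-04). Both calls held in the 19 and 20 alternatives of scaling, filters, windows and left-out arrays, and with a minimum log2 change of 1 the fall to the middle window no longer counted. The late difference from 0 h was 0.29 ± 0.14 (adjusted p = 0.162).

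Etv4 encodes an activator of the ETS family. Its gene ratios were 1.01 at 0 h, 0.903, 0.859, 0.851 and 0.914 in the early window, 0.958, 1.04, 1.07 and 1.11 in the middle window, and 1.15, 1.18, 1.31 and 1.23 in the late window. Every late array lay above every middle array, and every middle array above every early one. Etv4 rose by 0.24 ± 0.06 from early to middle (adjusted p = 0.0106) and by 0.22 ± 0.06 from middle to late (0.0279), where it was the 1 gene of the 8 called, against 10.3% of all genes called higher and 2.06% called lower. The late difference from 0 h, 0.26 ± 0.09, did not pass (0.0686); it passed with 1 probe set per gene (0.0207) and without 2.5 h (0.0498), the highest of 19 alternatives being 0.153.

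The later Etv4 step was lost without 2.5 h (adjusted p = 0.0800), 3.0 h (0.0571), 5.5 h (0.0890) or 6.0 h (0.0727), and with arrays centred on their medians (0.0512), in a range of 0.00819 to 0.0890 over 20 alternatives. The first step was lost with the other windows (0.127, against a lowest of 0.00490), and neither step reaches a minimum log2 change of 1. Its probe sets also differed: 1423232_at climbed from 0.788 at 1.5 h to 1.608 at 6.0 h and rose from middle to late by 0.44 ± 0.09 (adjusted p over single probe sets = 0.00883; 7.57% of single probe sets were called higher), whereas 1443381_at ended at 0.935 and moved by 0.003 ± 0.07 (0.984). Across the same step 5 of 9 markers of differentiated muscle and 3 of 10 myoblast markers were called higher, and none lower. Of all genes, 10.3% were called higher and 2.06% lower. The list medians were 0.32 and 0.06, against 0.02 for all genes. No fibroblast, endothelial, blood or adipocyte marker was called. The part of the markers in the Etv4 result was not tested.

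Etv5, a close relative of Etv4, had gene ratios of 0.899 at 0 h, 0.969, 0.886, 0.725 and 0.933 in the early window, 0.994, 1.23, 0.880 and 0.933 in the middle window, and 1.10, 1.17, 1.21 and 1.34 in the late window. The late arrays lay above all early arrays and above 3 of the 4 middle ones, the exception being 3.0 h. None of the 4 window comparisons passed: the largest difference, late against 0 h, was 0.42 ± 0.17 (95% interval 0.06 to 0.78; adjusted p = 0.103). The Etv5 probe sets differed. Probe set 1450082_s_at, whose suffix marks probes able to bind more than 1 transcript, rose from 0.726 at 0 h to between 1.188 and 1.289 in the late window. Its difference was 0.78 ± 0.17 (adjusted p over single probe sets = 0.00756), where 7.34% of single probe sets were called higher. Probe set 1428142_at was at 1.000 at 0 h and 0.716 at 1.5 h, and reached 1.587 at 6.0 h, the highest value of any Etv5 probe set. It rose from middle to late by 0.42 ± 0.13 (0.0483), where 7.57% of single probe sets were called higher, and did not pass late against 0 h (0.257). The third, 1420998_at, was highest at 3.0 h (1.286). It passed neither late against 0 h (0.12 ± 0.22, adjusted p = 0.803) nor late against middle (0.15 ± 0.14, 0.576).

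**Figure D3:**
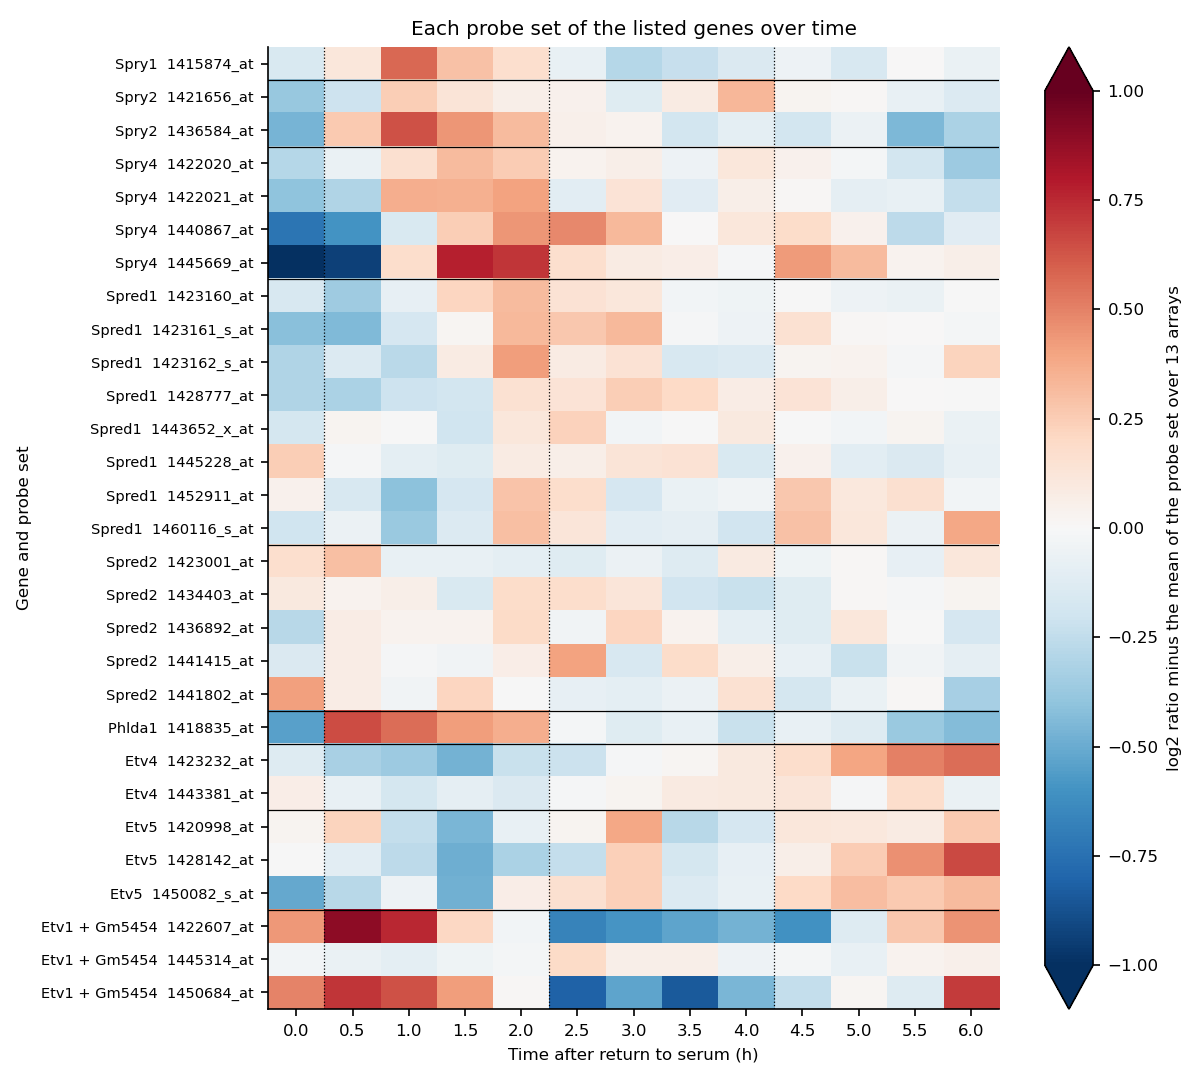
Each probe set (rows, grouped by gene) over the 13 time points (columns), coloured by log2 ratio minus the mean of that probe set over the 13 arrays. The lowest value is that of Spry4 1445669_at at 0 h, whose deposited ratio was 0.241, and 1423232_at of Etv4 reaches 1.608 at 6.0 h while 1443381_at of the same gene ends at 0.935.

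Etv1, the third relative, could be read only through probe sets annotated to it and to Gm5454, and signal from the gene and from the pseudogene cannot be told apart. Probe set 1422607_at had ratios of 1.169 at 0 h, 1.604, 1.455, 1.000 and 0.848 in the early window, 0.545, 0.575, 0.601 and 0.623 in the middle window, and 0.569, 0.792, 1.044 and 1.180 in the late window. Probe set 1450684_at had 1.388, then 1.614, 1.527, 1.313 and 0.994, then 0.563, 0.682, 0.551 and 0.716, then 0.832, 1.000, 0.901 and 1.599. On both, every middle array lay below every early array and below 0 h, and the 6.0 h value had returned to or above that of 0 h. The falls from early to middle were 1.02 ± 0.21 and 1.10 ± 0.18 on the log2 scale (adjusted p over single probe sets = 0.00372 and 0.00102). The later recovery passed for 1450684_at (0.75 ± 0.18; 0.0188) and not for 1422607_at (0.56 ± 0.21; 0.105). The third shared probe set, 1445314_at, stayed between 0.630 and 0.772.

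A smooth course over time, tested with a spline of 4 degrees of freedom, was called for 6 of the 8 genes, against 38.0% of all genes. These were Spry4 (adjusted p = 2.87e-06), Etv4 (6.00e-05), Spry1 (4.49e-04), Spry2 (0.00123), Phlda1 (0.00156) and Etv5 (0.0152). Spred1 (0.123) and Spred2 (0.406) did not pass, though Spred1 did with 1 probe set per gene (0.00281) and with a spline of 5 degrees of freedom (0.0232), in a range up to 0.284. The Etv5 call was lost without the 6.0 h array (0.0510, the highest of 22 alternatives, the lowest being 1.18e-04). The Spry1 call was lost with a spline of 3 degrees of freedom (0.0673). A straight line in time left 2 of the 6.

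The study looked for oscillation, and the segmentation clock of the mouse embryo has a period near 2 h. With a period of 2 h on top of a slow trend, limma called 0 of the 8 genes and 0 of all 18193, and 721 genes (3.96%) had an unadjusted p under 0.05, none of them among the 8. The lowest unadjusted p among the 8 was that of Etv5 (0.0637). With a period of 3 h, 1 of the 8, Spry4, was called (adjusted p = 0.0385) with 0.407% of all genes. A series of 6 h holds 2 such cycles.

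Outside the listed genes, the FGF pathway was represented by lists of its ligands and receptors, its kinase chain, the partners of the listed proteins, other inhibitors and other ETS factors. In the early window, other feedback inhibitors were the list with most calls after the early growth factor genes. Of these inhibitors 4 of 19 rose and none fell, against 1.46% of all genes called higher and 1.81% lower. The list median was 0.07, against -0.03 over all genes. Errfi1, an inhibitor of the EGF receptor, rose by 2.23 ± 0.23 (adjusted p = 4.61e-04). The ERK phosphatase genes Dusp5 and Dusp6 rose by 2.14 ± 0.27 (0.00171) and 1.47 ± 0.22 (0.00512), and Dusp2 by 1.23 ± 0.28 (0.0316). The Dusp5 call was lost after quantile normalization (0.0645), and the Dusp2 call after it (0.0855) and without 1.0 h (0.0566), among other settings. The nearest relatives of the listed genes, Spry3 (-0.05), Spred3 (-0.34), Phlda2 (-0.06) and Phlda3 (0.07), did not pass. In the same comparison 1 of 10 myoblast markers was higher, 1 of 6 fibroblast markers was lower, and no marker of differentiated muscle, endothelium, blood or fat was called.

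Early growth factor genes served as a reference for the response to serum, and 11 of 19 rose, with a median of 1.55. Over all genes 1.46% were called higher and 1.81% lower, and the median was -0.03. The largest differences were those of Egr2 (2.91, adjusted p = 0.00944), Ier3 (2.47, 0.00267), Atf3 (2.35, 0.0235) and Fosl1 (2.35, 0.0191), all transcription factors save Ier3. The Atf3 call was lost with a robust variance trend (0.0749) and the Fosl1 call after quantile normalization (0.213). Among FGF ligands and receptors 2 of 19 rose and 1 fell: Sdc4, a heparan sulfate proteoglycan that assists FGF binding, by 1.50 ± 0.19 (adjusted p = 0.00143), Fgf5 by 0.76 (0.0413) and Fgf21 by -0.57 (0.0386). Of 12 fits without 1 array, 3 kept the Fgf5 call and 7 the Fgf21 call. None of the 15 measured genes of the adaptors, Ras, Raf, MEK and ERK (of 22 listed), of the 18 partners and of the 17 other ETS genes was called.

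**Figure D4:**
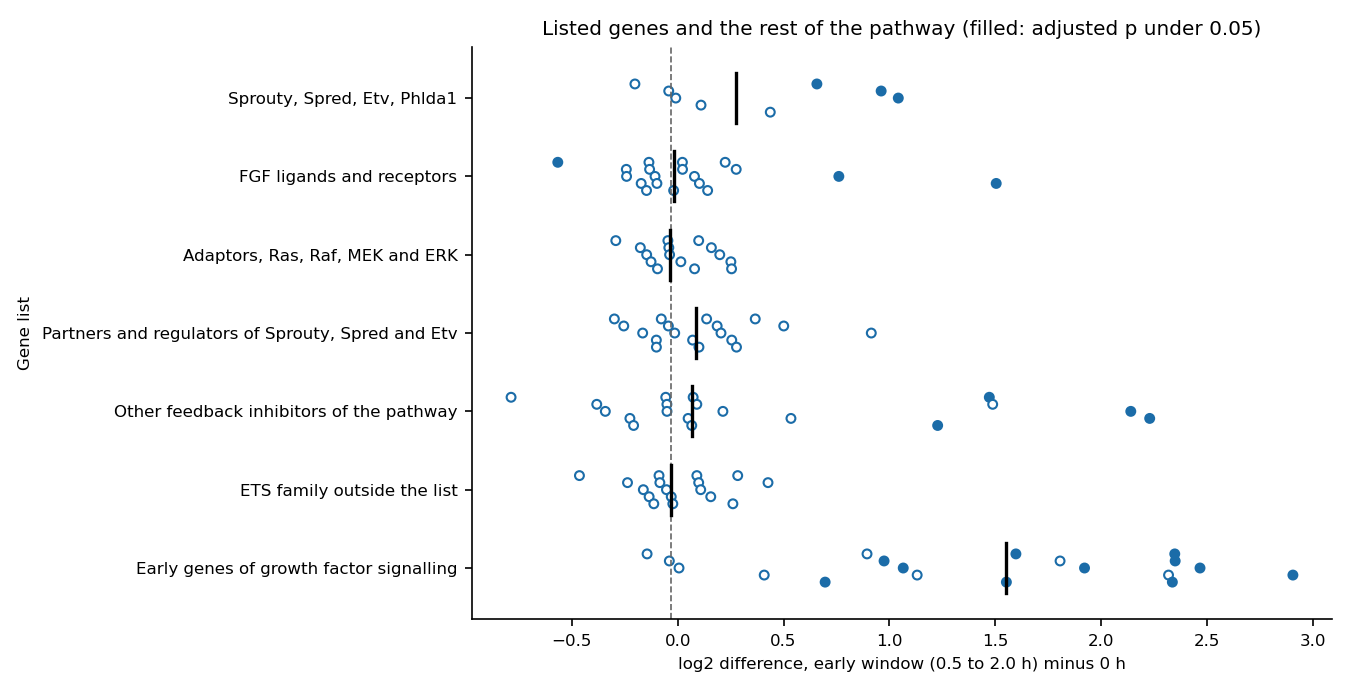
Log2 difference of the early window from 0 h (x axis) for each gene of each list (rows), with filled points for an adjusted p under 0.05, black ticks for list medians and a dashed line for the median of all genes (-0.03). Filled points are 3 of 8 listed genes, 4 of 19 other feedback inhibitors, 3 of 19 FGF ligands and receptors and 11 of 19 early growth factor genes, and the remaining lists have none. Among all genes, 3.26% were called.

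In the late window 3 of the 19 FGF ligands and receptors had risen from 0 h and 2 had fallen, and 4 of the 18 partners had risen and 1 had fallen, against 8.80% of all genes called higher and 9.90% lower (18.7% in all). Fgfr1, the main FGF receptor of myoblasts, fell by 0.81 ± 0.20 from 0 h (adjusted p = 0.0114) and Fgfr4, a receptor of muscle precursors, fell by 0.65 ± 0.10 (7.06e-04), while Sdc4 still stood 1.47 ± 0.19 above (3.64e-04). Of the partners, Rasa1, which inactivates Ras, rose by 1.08 ± 0.21 (0.00318), Rasa2, of the same family, by 0.88 (0.0273), and Atxn1, whose protein binds Capicua, by 0.55 ± 0.11 (0.00383), and Mknk2, a kinase activated by ERK, fell by 1.07 ± 0.19 (0.00213). Rasa2 lost the call with 1 probe set per gene (0.0703; range over 19 alternatives 0.00704 to 0.0703), and 10 of 12 fits without 1 array kept it.

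Other feedback inhibitors had 4 of 19 higher and 1 lower late against 0 h, where 18.7% of all genes were called. Dusp5 (1.41 ± 0.27; adjusted p = 0.00335), Errfi1 (0.95 ± 0.23; 0.0122) and Dusp6 (0.88 ± 0.22; 0.0132) were still above 0 h, and Dusp4, another ERK phosphatase gene, had joined them (1.40; 0.0374). Rgs2, an inhibitor of G protein signals, had fallen by 1.20 (0.0312). Quantile normalization ended the calls of Dusp5 (0.139), Errfi1 (0.0956) and Dusp4 (0.133), and 9 of 12 fits without 1 array kept those of Dusp4 and Rgs2. Of the listed genes, Spry4 alone passed in this comparison. Among other ETS genes Elk4 rose (0.30; 0.0373) and Elf4 fell (-0.29; 0.0182), both calls being lost after quantile normalization (0.105 and 0.0933). Over the same interval 4 of 6 fibroblast markers, 1 of 10 myoblast markers and 1 of 4 adipocyte markers were lower, and 1 of 9 markers of differentiated muscle and 1 of 5 blood markers were higher. Their part in these results was not tested.

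Courses were compared by the root mean square difference of log2 ratios over the 13 arrays, each gene centred on its own mean. For Spry4 the nearest genes on the array were Ier5l (0.11) and Gfod1 (0.11), and for Phlda1 they were Nr4a3 (0.14) and Plk2 (0.16). This difference is small for genes that move little, so it is read beside the root mean square of each gene around its own mean. Etv4 and Etv5 differed by 0.16, less than their own values (0.19 and 0.24). Spred1 and Spred2 differed by 0.15, more than theirs (0.13 and 0.06), so their small difference does not show a shared course. Spry1 was nearer to Spry2 (0.17) than to Spry4 (0.34), with own values of 0.23, 0.22 and 0.33. Spry2 lay between its relatives, at 0.24 from Spry4. All these values share the same 13 arrays.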

How the data were processed

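RNA of C2C12 myoblasts was profiled on 13 Affymetrix arrays, 1 per time point. The authors deposited linear ratios. The submitters' processing notes name RMA with no version, and the sources used here do not say how the ratios were formed. Of 45101 probe sets, 64 array controls were left out. Log2 ratios of 18193 genes, each the mean over probe sets naming only that gene, were fitted in R 4.3.3 by limma 3.58.1, two-sided, through lmFit with eBayes. All 13 arrays entered 1 fit of window means, and the lone 0 h array was assumed to vary like the others. The threshold was a Benjamini-Hochberg adjusted p under 0.05 over all genes. The smooth course used a spline with 4 degrees of freedom, and the oscillation a cosine and sine over a trend with 3. Python 3.11.15 was used for tables (numpy 2.4.6, pandas 2.3.3) and plots (matplotlib 3.10.9). The models were tested on simulated data.

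The members and lists were chosen with earlier results of these data known. Named were all members, their 2 nearest genes where the log2 range was at least 1, and per list and comparison with 0 h up to 4 called genes of largest change. Relatives of members and Dusp6 in the late comparison were added after their values were seen. Alternatives were quantile normalization, median centring, a robust variance trend, 1 probe set per gene, single probe sets, a filter on SD, each array left out, other windows, a minimum change, other splines and other periods. Fits without probe sets under 1 on all arrays, and Spry4 without 1 probe set, were added after the data had been examined. No paired analysis was possible because there were no replicates.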

Additional observations from a re-analysis of the deposited data

How the results depend on the processing

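The number of arrays limits these results: 1 array per time point, 1 array at 0 h, and ratios that hold no signal over background. Of the results for single members, 960 kept their side of the threshold and, in the window comparisons, their direction. A further 39 lost a call, 12 gained one and 13 reversed, none of the reversed being called. The 960 include results that were called in neither fit, and the causes were not tested. For early against 0 h, 594 genes were called and 3 members; quantile normalization left 45 and 1, windows ending at 1.5, 3.5 and 6.0 h left 218 and 1, and a minimum log2 change of 1 left 59 and 1. Single probe sets gave 1037 genes, and leaving out 1 array gave 298 (without 1.5 h) to 1431 (without 0.5 h), with 377 without 1.0 h and 363 without 5.0 h. For middle against early (4033 genes, 3 members), the other windows gave 1507 genes, the minimum change 55 genes and 0 members, and single probe sets 5 members. For late against middle (2240 genes, 1 member), the other windows gave 1051 genes, the minimum change 8 genes and 0 members, median centring 0 members, and 1 probe set per gene and single probe sets 2 members each. Leaving out 1 array gave 1105 (without 6.0 h) to 2570 genes, with 1400 without 2.5 h and 1277 without 5.5 h, and 0 to 1 members. For late against 0 h (3402 genes, 1 member), quantile normalization gave 1902 genes and 0 members, the minimum change 289 and 0, 1 probe set per gene 3 members, single probe sets 4, Spry4 without 1445669_at 0, and leaving out 1 array 0 to 2. A straight line gave 3704 genes and 2 members in place of 6911 and 6, and a period of 3 h gave 74 genes and 1 member in place of 0 and 0. Reversed values, on the log2 scale, follow. Spred2 early against 0 h was 0.019 after quantile normalization and ran from -0.032 to 0.0075 when 1 array was left out, above 0 without 1.0 h or 1.5 h. Etv5 early against 0 h ran from -0.093 to 0.047, above 0 without 1.5 h. Spry4 was 0.15 for middle against early with the other windows, ran there from -0.25 to 0.057 with 1 array left out, above 0 without 1.5 h or 2.0 h, and was 0.14 for late against middle with 1 probe set per gene. Spred1 late against middle was 0.015 without probe sets under 1 on all arrays and ran from -0.035 to 0.035 with 1 array left out, above 0 without 2.5, 3.0, 5.0 or 5.5 h.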
